A study of Homo sapiens with 6 samples.

Results

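The signal recognition particle is the ribonucleoprotein that finds ribosomes making secreted or membrane proteins and brings them to the endoplasmic reticulum. It was followed here through 10 genes, chosen by symbol from the 59251 rows of the expected count table. They are 2 genes of its RNA, 7SL (RN7SL1 and RN7SL2), 6 genes of its proteins (SRP9, SRP14, SRP19, SRP54, SRP68 and SRP72) and the 2 genes of its receptor (SRPRA and SRPRB). Each symbol matched 1 row, and all 10 passed the filter on low counts.

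The RNA came from HCT116 cells, an established human colorectal carcinoma line. The 3 MUT libraries were made from cells that CRISPR/Cas9 editing had left homozygous for the N106S substitution in eIF6, and the 3 WT libraries from unedited HCT116 cells. eIF6 binds the large ribosomal subunit and keeps it from joining the small one. The labels speak of mutant clones without saying how many were sequenced or whether replicates were separate cultures, so every p-value here reflects the spread among these libraries alone, which may be technical. All cells were collected before confluence and total RNA was extracted with phenol and chloroform.

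In mammalian cells 7SL RNA is transcribed by RNA polymerase III and folds into an Alu domain, made of its ends, and an S domain. SRP9 and SRP14 bind the Alu domain as a heterodimer, which slows elongation while the ribosome is brought to the membrane. SRP19, SRP54 and the SRP68 and SRP72 pair sit on the S domain, where SRP54, a GTPase, binds the signal sequence. At the membrane the particle meets its receptor, of which SRPRA is the GTPase that pairs with SRP54 and SRPRB the membrane-anchored partner, and the ribosome passes to the Sec61 translocon.

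Libraries held 53986494 to 80146608 counts in MUT and 63951768 to 87656970 in WT. Without the rows of the 7SL family and the RNA polymerase III products RN7SK, RPPH1 and RMRP, 11095306 to 23219019 counts remained in MUT and 10254148 to 17800506 in WT, called other counts below. MUT replicate 2 stood apart: rows named as cytosolic ribosomal RNA made up 3.91% of this library, while the other MUT libraries had 0.0891% and 0.139%. In WT that share was 1.16% in replicate 1 and 0.118% and 0.234% in the others. MUT replicate 2 also had 773912 counts of the pseudogene RN7SKP80, against 9 and 3 in the other MUT libraries and 1 to 11 in WT. Of RPL41, a ribosomal protein gene, it had 116276, while MUT replicates 1 and 3 had 756 and 537 and the WT libraries 419 to 1215. Both rows, and the ribosomal RNA rows, are part of the other counts. Epithelial markers summed to 462 to 512 CPM (counts scaled to a common library size) in MUT and 436 to 471 CPM in WT, and 9 of 10 had at least 10 counts in every library. Of 6 endothelial markers CDH5, CLDN5 and ERG were at 0 in all libraries and the summed level was at most 0.0614 CPM in MUT and 0.0433 CPM in WT. Of 9 leukocyte markers PTPRC, CD3E and MS4A1 were at 0, with sums of 0.819 to 1.45 CPM in MUT and 1.07 to 1.09 CPM in WT. The 8 fibroblast markers, none at 0 throughout, summed to 1.69 to 2.72 CPM in MUT and 0.606 to 3.3 CPM in WT.

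RN7SL1 and RN7SL2 lie on chromosome 14, as does another copy, RN7SL3, and the pseudogene RN7SL5P lies on chromosome 9 (GENCODE 29). The copies are closely related, and many further rows of the table carry pseudogenes of 7SL RNA. An estimator such as RSEM, which the submitters' processing notes name, divides reads that fit several copies. The value of a single 7SL row is therefore uncertain, and the sum over all rows whose symbol starts with RN7SL is given beside it.

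7SL RNA was the most abundant RNA in every library and did not differ detectably between the groups, though its range in MUT was wide. RN7SL1 took 41.1%, 19.6% and 39.45% of all counts in MUT replicates 1 to 3, against 41.85%, 39.3% and 44.2% in WT replicates 1 to 3. RN7SL2 took 17.15%, 8.95% and 18.5% in the MUT libraries, against 21.6%, 16.8% and 19.2% in the WT libraries. MUT replicate 2 was low for both genes, and the other MUT values lay within the WT range, so the groups overlapped. In bulk RNA, fewer cells that express a gene and less RNA per cell cannot be told apart. Counting error alone (Wilson 95% intervals) was at most 0.0132 percentage points either side for the 2 rows together.

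Much of the gap in MUT replicate 2 was matched by RN7SL5P. That row held 8179684 counts there, 13.9% of the library, against 35 and 58 counts in MUT replicates 1 and 3. In WT it held 14666 counts in replicate 1 and 37 and 68 in the others. The 2 libraries with the most RN7SL5P counts were also the 2 with the most ribosomal RNA, and what part that played was not tested. Summed over all 687 RN7SL rows, of which 106 had any count, 7SL took 59.4%, 43.3% and 59.2% of the MUT libraries and 64.4%, 56.9% and 64.25% of the WT libraries. The family share was still lowest in MUT replicate 2, and the groups still overlapped.

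**Figure D1:**
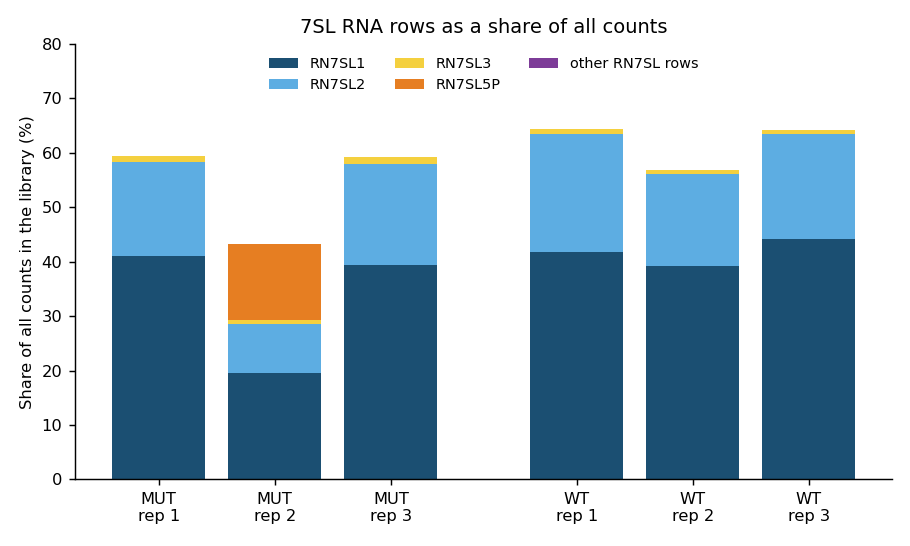
Bars give the percent of all counts in each library that fell on RN7SL rows, MUT libraries left and WT libraries right, stacked by row. RN7SL1 and RN7SL2 fill nearly the whole bar except in MUT replicate 2, where RN7SL5P holds 13.9% of all counts. RN7SL5P in the other libraries and the other RN7SL rows are too small to be seen.

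The mean share of RN7SL1 plus RN7SL2 was 48.3% ± 17.1 in MUT and 60.95% ± 4.25 in WT (SD, n = 3 each), and a two-sided exact permutation test gave p = 0.3. For the whole family it was 53.97% ± 9.26 in MUT and 61.8% ± 4.29 in WT (exact permutation p = 0.3). With 3 against 3 libraries this test cannot go below 0.1. With TPM in place of counts the exact permutation p was 0.1 for RN7SL1 plus RN7SL2, a difference of -12.4 percentage points, and 0.2 for the family. The family difference in counts, MUT minus WT, was -7.86 percentage points with all libraries and -2.52 without MUT replicate 2.

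Scaled by TMM, which sets libraries level on the bulk of their genes, RN7SL1 stood at 437700, 118500 and 355900 CPM in MUT and at 529700, 362800 and 652200 CPM in WT. RN7SL2 stood at 182500, 54030 and 167100 CPM in MUT and at 273300, 154900 and 283000 CPM in WT. TMM-scaled CPM are relative to a rescaled library size, and the factors ran from 0.94 to 1.66 in MUT and from 0.678 to 1.08 in WT. The fold changes were 0.59 for RN7SL1 (log2 -0.76, SE 0.75, edgeR quasi-likelihood adjusted p = 0.643) and 0.568 for RN7SL2 (log2 -0.82, SE 0.67, adjusted p = 0.565). Summed as 1 row, the family had a log2 fold change of -0.68 (SE 0.68, adjusted p = 0.649) with a 95% interval from -2.22 to 0.86, that is from 0.214-fold to 1.82-fold. Without MUT replicate 2 it was -0.36 (interval -1.16 to 0.43). A change of 2-fold in 7SL RNA in the lower direction lay inside both intervals.

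How counts were divided between the 2 chief copies hardly varied. RN7SL1 held 70.6%, 68.7% and 68.1% of their joint counts in the MUT libraries, against 65.97%, 70.1% and 69.7% in the WT libraries. The log2 ratio of RN7SL1 to RN7SL2 averaged 1.16 ± 0.09 in MUT and 1.13 ± 0.15 in WT (SD, n = 3 each, exact permutation p = 0.8). RN7SL3, in contrast, took 1.84%, 2.63% and 2.001% of the counts of the 3 copies in MUT, against 1.36%, 1.37% and 1.26% in WT. All MUT libraries were above all WT libraries in that ratio, which was picked out after its values were seen and was not tested. As a level RN7SL3 did not pass (log2 fold change -0.16, SE 0.43, edgeR adjusted p = 0.886). The other RN7SL rows above 1000 counts in any library, RN7SL4P, RN7SL128P, RN7SL151P, RN7SL396P and RN7SL752P, had log2 fold changes from -0.79 to -0.63, with adjusted p-values from 0.243 to 0.328. RN7SL5P, whose level rested on MUT replicate 2, had an adjusted p of 0.292.

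The proteins gave a mixed picture under TMM scaling. Of the 10 genes 1 passed edgeR's quasi-likelihood test at an adjusted p of 0.05: SRPRB was higher in MUT. Over all 14808 genes tested 1.91% passed, 0.986% higher and 0.925% lower in MUT, so 1 of 10 genes is a count that says little by itself. The MUT values of SRPRB, SRP68 and SRP72 all lay above the WT values, which held for 12.8% of all genes tested. The groups did not overlap in either direction for 26.1%, with MUT below WT for 13.4%. The 8 protein-coding members had a median log2 fold change of 0.16, against -0.01 for all genes tested, and 6 of the 8 were above 0. Without MUT replicate 2 that median was 0.01, against -0.00127 for all genes.

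**Figure D2:**
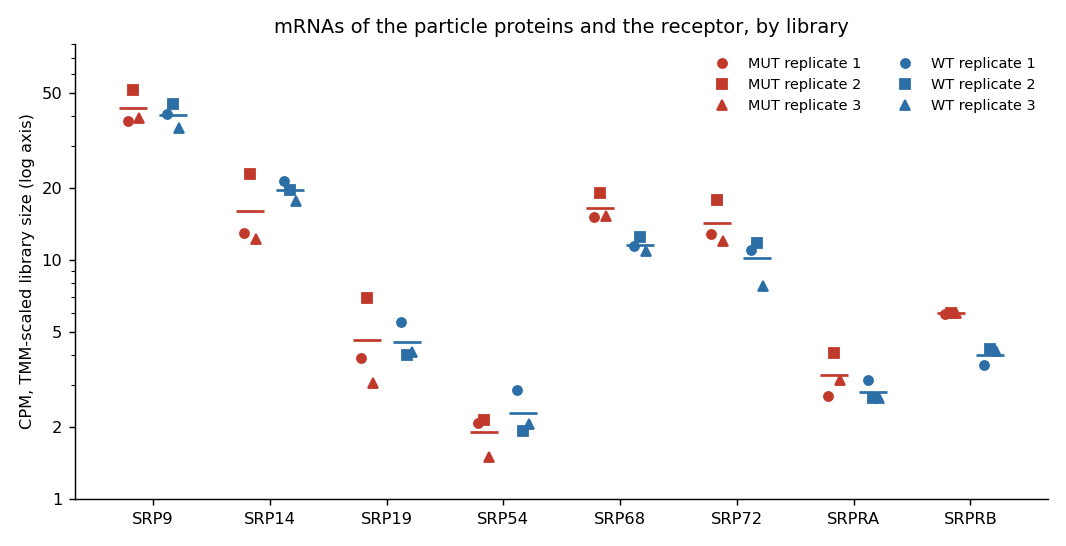
Points give the TMM-scaled CPM of each protein-coding gene in each library on a log axis, MUT left of WT, with a bar at the group mean. The MUT points lie above the WT points for SRP68, SRP72 and SRPRB, and MUT replicate 2 is the highest MUT library for all 8 genes, by a narrow margin for SRP54 and SRPRB.

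Of the Alu domain pair, SRP9 was the most abundant protein mRNA of the particle by TPM, and its values overlapped between the groups. It stood at 38.2, 51.5 and 39.3 CPM in MUT and at 40.6, 44.8 and 35.5 CPM in WT. The log2 fold change was 0.09 (SE 0.16, 95% interval -0.26 to 0.45, edgeR adjusted p = 0.806), and -0.04 without MUT replicate 2. SRP14 stood at 12.99, 22.95 and 12.3 CPM in MUT and at 21.3, 19.6 and 17.6 CPM in WT. MUT replicates 1 and 3 were below every WT library and MUT replicate 2 was above them. With all 6 libraries SRP14 did not pass (log2 fold change -0.28, SE 0.23, edgeR adjusted p = 0.567). Without MUT replicate 2 it was called lower in MUT (-0.61, SE 0.13, adjusted p = 0.0342), in a fit that called 2.9% of all genes, 1.53% higher and 1.36% lower. The log2 ratio of SRP9 to SRP14 counts was 1.56, 1.17 and 1.68 in MUT, against 0.93, 1.19 and 1.01 in WT, again with MUT replicate 2 inside the WT range (exact permutation p = 0.2).

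SRP19, which helps assemble the S domain so that SRP54 can bind, was low and variable. It stood at 3.904, 6.93 and 3.04 CPM in MUT and at 5.49, 3.997 and 4.13 CPM in WT. Its log2 fold change was 0.03 (SE 0.28, edgeR adjusted p = 0.965) with all libraries and -0.37 (adjusted p = 0.304) without MUT replicate 2. The gene overlaps REEP5 on the opposite strand (570 to 980 counts in MUT, 373 to 752 in WT), and the sources used here do not say whether counting used strand. SRP54, the signal sequence binder, had the lowest TPM of the particle proteins and stood at 2.09, 2.13 and 1.504 CPM in MUT and 2.86, 1.92 and 2.05 CPM in WT. It did not pass either (log2 fold change -0.25, SE 0.21, 95% interval -0.73 to 0.22, adjusted p = 0.569). With 90 to 208 counts per MUT library and 89 to 198 per WT library, it also had the fewest counts among them.

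The pair of large S domain proteins had MUT values above all WT values, without passing the threshold. SRP68, an RNA-binding subunit, stood at 15.05, 19.1 and 15.3 CPM in MUT, against 11.4, 12.4 and 10.9 CPM in WT. SRP72, its binding partner, stood at 12.9, 17.85 and 12.03 CPM in MUT, against 10.95, 11.8 and 7.78 CPM in WT. For both genes the lowest MUT library was above the highest WT library, by a small margin for SRP72. The log2 fold change of SRP68 was 0.51 (SE 0.13, edgeR adjusted p = 0.0886, unadjusted p = 0.0043), and DESeq2's Wald test called it (adjusted p = 0.0246) while calling 5.99% of all genes, 2.76% higher and 3.23% lower. That of SRP72 was 0.485 (SE 0.2, edgeR adjusted p = 0.221). Without MUT replicate 2 the log2 values were 0.41 for SRP68 (adjusted p = 0.0921) and 0.304 for SRP72 (adjusted p = 0.354).

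The receptor gave the one call. SRPRB, which encodes the membrane-anchored small GTPase of the receptor, stood at 5.94, 6.001 and 6.0 CPM in MUT, against 3.63, 4.25 and 4.15 CPM in WT. The 3 MUT values nearly coincided and all exceeded the WT values. The fold change was 1.49 (log2 0.58, SE 0.11, 95% interval 0.33 to 0.82, edgeR adjusted p = 0.0374). Without MUT replicate 2 the value was 0.59 (adjusted p = 0.0441), and DESeq2's Wald test gave 0.59 (adjusted p = 0.0161). The call was absent with any 1 of the other 5 libraries left out, where the log2 value ran from 0.52 to 0.65 and the adjusted p from 0.114 to 0.153, and by library size alone (1.11, adjusted p = 0.14). In GENCODE 29 the gene spans chr3:133784033-133825772 on the plus strand and overlaps the transferrin gene TF, which had 1 to 8 counts in MUT and 1 to 5 in WT. On the opposite strand it overlaps RAB6B, which had 113, 96 and 70 counts in MUT and 62, 61 and 46 in WT. SRPRB itself had 447, 586 and 359 counts in MUT and 251, 319 and 180 in WT, and what part reads of RAB6B could have in its count was not tested.

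SRPRA, which encodes the GTPase subunit that meets SRP54, stood at 2.68, 4.07 and 3.14 CPM in MUT and at 3.15, 2.64 and 2.65 CPM in WT. The groups overlapped and the gene did not pass (log2 fold change 0.23, SE 0.17, 95% interval -0.16 to 0.62, edgeR adjusted p = 0.524). It overlaps FOXRED1 and FAM118B on the opposite strand. FOXRED1 had 152 to 278 counts in MUT and 147 to 238 in WT, and FAM118B 148 to 262 in MUT and 112 to 214 in WT. The log2 ratio of SRPRA to SRPRB counts was -1.15, -0.56 and -0.93 in MUT and -0.203, -0.69 and -0.65 in WT, with overlap (exact permutation p = 0.3).

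**Figure D3:**
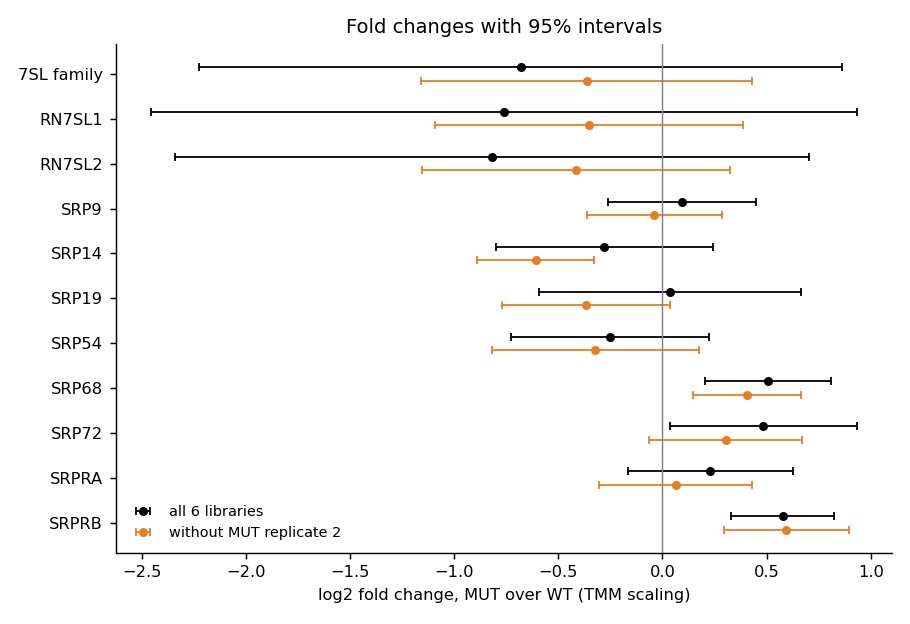
Points give the log2 fold change of MUT over WT under TMM scaling, with 95% intervals, for the summed 7SL family and the 10 genes, with all 6 libraries and without MUT replicate 2. The intervals of SRP68 and SRPRB lie above 0 in both fits, that of SRP14 lies below 0 only without MUT replicate 2, and those of the 7SL rows span 0 in both.

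As shares of other counts, which leave out the abundant RNAs, both the particle proteins and the receptor had MUT values above all WT values. The 6 SRP proteins together took 0.0419%, 0.0507% and 0.04501% of other counts in MUT, against 0.0386%, 0.0399% and 0.03296% in WT. The 2 receptor genes took 0.00424%, 0.00423% and 0.00493% in MUT, against 0.00282%, 0.002904% and 0.00288% in WT. Neither pair of groups overlapped, and by exact permutation p = 0.1 for each, the lowest that 3 against 3 allows. With TPM in place of counts the SRP proteins overlapped (exact permutation p = 0.2) and the receptor did not (p = 0.1). By count shares 4.52% of the 14791 genes tested outside the abundant RNAs had MUT shares below all WT shares. On this scale the MUT mean was 1.62 times the WT mean for SRP68, 1.59 times for SRP72, 1.33 times for SRPRA and 1.72 times for SRPRB, and the MUT values of these 4 genes lay above all WT values. The other 4 genes overlapped, with 1.21 times for SRP9, 1.13 times for SRP19, 0.953 times for SRP54 and 0.922 times for SRP14. The median of those 14791 genes was also higher there, at 1.14 times, and 21.8% of them had MUT shares above all WT shares.

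As shares of all counts, the values follow how much of a library the abundant RNAs took. SRPRB stood at 7.39 ± 2.28 unscaled CPM in MUT and 3.43 ± 1.02 in WT, and SRP68 at 20.9 ± 9.38 unscaled CPM in MUT and 9.96 ± 3.15 in WT (SD, n = 3 each). For both, all MUT libraries were above all WT libraries (exact permutation p = 0.1 each). SRP9, at 54.96 ± 26.6 unscaled CPM in MUT and 34.9 ± 12.5 in WT, overlapped (exact permutation p = 0.4). Unlike as shares of other counts, SRP72 (2.06 times the WT mean) and SRPRA (1.78 times) overlapped here (exact permutation p = 0.2 each). So did SRP19 (1.62 times), SRP14 (1.28 times) and SRP54 (1.25 times), with exact permutation p from 0.7 to 0.8. On this scale the median of the 14791 genes tested outside the abundant RNAs was 1.44 times as high in MUT as in WT. Of these genes 23.5% had MUT values above all WT values.

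Set against its RNA, the protein mRNA was scarce and the ratio varied more between libraries than between groups. For each count on the 6 SRP protein genes, the 7SL family had 7430, 2169 and 6400 counts in MUT, against 8793, 5556 and 12160 in WT. MUT replicate 2 was the lowest and WT replicate 3 the highest. The log2 ratio averaged 12.2 ± 0.97 in MUT and 13.04 ± 0.57 in WT (SD, n = 3 each, exact permutation p = 0.3). These are counts, not molecules, and transcript length and library preparation enter the ratio.

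Per unit of length, the 6 protein mRNAs of the particle were far from equal, although the particle holds 1 copy of each protein. The TPM deposited by the authors, divided by the summed TPM of the 6 genes in the same library, gave SRP9 47% to 54.9% of the total and SRP14 23.3% to 33.5% over all libraries. SRP68 held 7.02% to 11.3%, SRP72 3.94% to 6.63%, SRP19 2.72% to 5.33% and SRP54 1.46% to 2.29%. The order SRP9, SRP14, SRP68 was the same in every library, and SRP19 lay above SRP72 in WT replicate 1 only.

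Within this total the MUT and WT values of 3 genes did not overlap, each at the smallest p the test allows, which is not below 0.05. No share of all genes was computed on this scale, so the count of 3 says little by itself. Under TMM scaling 26.1% of all genes tested did not overlap in either direction. SRP14 held 24.2%, 28.8% and 23.3% in MUT, against 33.5%, 30.7% and 33% in WT. SRP68 held 11.1%, 9.84% and 11.3% in MUT, against 7.02%, 7.76% and 8.44% in WT. SRP72 held 6.63%, 6.37% and 6.3% in MUT, against 4.81%, 5.1% and 3.94% in WT. SRP14 was lower and SRP68 and SRP72 were higher in all MUT libraries than in any WT library (exact permutation p = 0.1 each, 6 genes compared). The values of the 6 genes sum to a fixed total, so they are not independent of each other. The summed TPM of SRP68 and SRP72 was 0.2298, 0.211 and 0.226 times that of SRP9 and SRP14 in MUT, against 0.147, 0.156 and 0.1505 times in WT. This ratio needs no scaling between libraries and MUT replicate 2 did not stand apart in it, but it was formed after the single genes had been seen and was not tested.

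**Figure D4:**
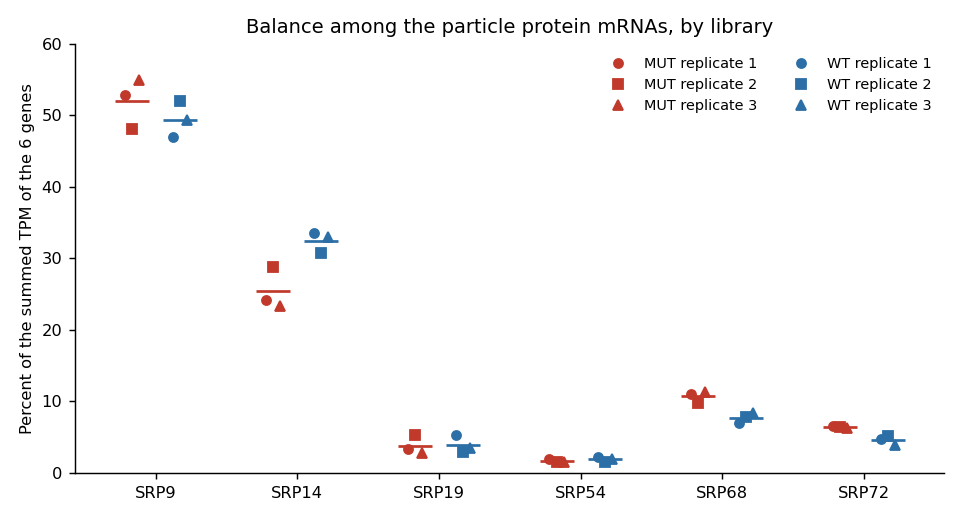
Points give each gene's TPM as a percent of the summed TPM of the 6 particle protein genes in that library, MUT left of WT, with a bar at the group mean. SRP14 is lower and SRP68 and SRP72 are higher in the 3 MUT libraries, and SRP9 overlaps.

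The genes that act before and after the particle were taken from 9 lists chosen by function, 108 genes in all. Of the 97 tested, 2 were called higher in MUT and 0 lower, a share close to that of all genes (1.91%). By DESeq2's Wald test 6 of them were called, in a test that called 5.99% of all genes, and at an unadjusted p of 0.05 in edgeR's test 24 were, against 19.6% of all genes. The median log2 fold change over the 97 was 0.02.

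Of the 12 translocon genes, which form or assist the Sec61 channel, 0 were called and the median was 0.09. SEC62 (log2 fold change 0.74, edgeR adjusted p = 0.141) and TRAM1 (0.495, adjusted p = 0.149) had the smallest p. The channel subunits SEC61A1 (0.103), SEC61B (-0.298) and SEC61G (0.00275) were not called either. Of 6 signal peptidase genes 0 were called, although SEC11A, a catalytic subunit, stood at 20.1, 25.8 and 19.35 CPM in MUT, against 29.1, 35.2 and 30.25 CPM in WT (-0.53, adjusted p = 0.0986). SEC11A was called lower without MUT replicate 2 (-0.65, adjusted p = 0.0289) and by DESeq2's Wald test (-0.52, adjusted p = 0.0271). The groups overlapped for its alternative, SEC11C (-0.195, edgeR adjusted p = 0.534). SPCS2, an accessory subunit, had a value of 0.59 (adjusted p = 0.183).

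Among 11 tested oligosaccharyltransferase genes, which attach glycans to nascent chains, 0 were called. MAGT1 (0.94, edgeR adjusted p = 0.0554) and RPN1 (0.41, adjusted p = 0.103) came closest. DESeq2's Wald test called both higher, MAGT1 at 0.95 (adjusted p = 0.0251) and RPN1 at 0.42 (adjusted p = 0.0426). Of 10 genes of the EMC, an insertase for membrane proteins, EMC1 was called higher. It stood at 3.16, 3.15 and 3.48 CPM in MUT, against 2.02, 1.72 and 1.43 CPM in WT (0.91, SE 0.16, adjusted p = 0.0285), while the list's median was -0.05. It kept its call without MUT replicate 2 (0.95, adjusted p = 0.0256) and lost it with any 1 of the other 5 libraries left out, with log2 values from 0.81 to 1.06 and adjusted p from 0.0749 to 0.126. In the 4 libraries with the least ribosomal RNA it was called (1.08, adjusted p = 0.016).

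The next lists, GET, multipass translocon and nascent polypeptide-associated complex, had no called gene in edgeR's filtered fit of all 6 libraries. Of 7 genes of the GET pathway, which inserts tail-anchored proteins, CAMLG (-0.42, edgeR adjusted p = 0.0818) and GET3 (0.304, adjusted p = 0.19) had the smallest p. Of 9 genes of the multipass translocon, NOMO3 (0.75, adjusted p = 0.113) and NCLN (0.39, adjusted p = 0.143) did. NCLN was called higher without MUT replicate 2 (0.52, adjusted p = 0.042). NOMO3 was called higher by edgeR without the filter on low counts (0.76, adjusted p = 0.00857). It has near-identical copies, so its own value is uncertain. The 3 genes of the nascent polypeptide-associated complex, which binds ribosomes where the particle does, had values from -0.39 to -0.17, among them BTF3 (-0.39, adjusted p = 0.378) and NACA (-0.301, adjusted p = 0.499).

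Of 31 genes of RNA polymerase III, which makes 7SL RNA, and of its factors and regulators, 1 was called. Not every gene of this list need serve the 7SL RNA genes. POLR3D, a subunit of the polymerase, stood at 3.585, 3.62 and 3.59 CPM in MUT, against 2.18, 2.32 and 2.17 CPM in WT (0.69, SE 0.12, edgeR adjusted p = 0.0277). The list's median was 0.06, with 19 genes above 0 and 12 below. POLR3D was also called without MUT replicate 2 (0.71, adjusted p = 0.0357) and was not called with any 1 of the other 5 libraries left out, where the log2 value ran from 0.69 to 0.76 and the adjusted p from 0.0971 to 0.118. Of 18 other RNA polymerase III transcripts 8 could be tested and 0 were called, with values from -0.804 for RMRP (adjusted p = 0.343) to 0.71 for BCYRN1 (adjusted p = 0.65). RMRP was called lower by DESeq2's Wald test (-0.79, adjusted p = 0.0185), and BCYRN1 was called higher by edgeR without the filter on low counts (0.71, adjusted p = 0.0403). RNY3, a Y RNA, had a value of 0.32 (adjusted p = 0.462).

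**Figure D5:**
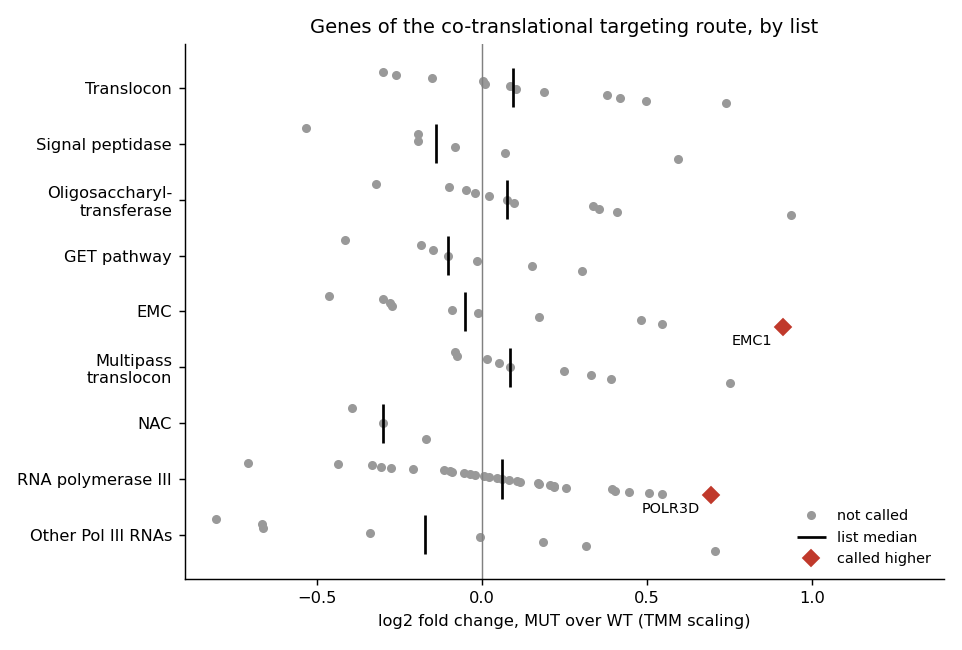
Each point is the log2 fold change of MUT over WT of 1 tested gene under TMM scaling, by list, with a bar at the list median. Diamonds mark the 2 called genes, EMC1 and POLR3D, and the medians lie between -0.301 and 0.0939.

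With the share of all counts taken by the 7SL family, 0 of 4516 genes had r above 0.9. The family itself made up 43.3% to 64.4% of the total that divides every share. Other shares therefore tend to fall as it rises, and the lack of high values says little about 7SL RNA. Over the 6 libraries the highest Pearson correlations among 4516 genes, given as a description, were those of LOC112268274 (r = 0.866), BANP (0.84), H2AX (0.837), GUSBP17 (0.829) and RNA45SN5 (0.806). The share of the 6 SRP proteins was closest to those of CYRIB (r = 0.9996), PPP2R5C (0.9995), HP1BP3 (0.9993), C15orf40 (0.9992) and FNTA (0.999). Such values were common, since 3093 of 4511 genes (68.6%) had r above 0.9 with the SRP proteins, and all shares in a library are divided by the same total.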

How the data were processed

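Total RNA libraries of HCT116 cells (3 MUT, 3 WT) were prepared with an NEBNext Ultra II kit, per the labels' protocols. The authors deposited expected counts and TPM per gene. Per the submitters' processing notes, STAR 2.5.2b, RSEM 1.2.28, FastQC 0.12.1 and DESeq2 1.42.0 are listed, with hg38 and GRCh38 as builds and no roles given. The deposited FPKM were not used. Whether counting used strand is not given in the sources used here.

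Expected counts were whole and entered edgeR 4.0.16 (R 4.3.3) after filterByExpr (minimum count 10, total 15), with TMM factors, the quasi-likelihood F-test and Benjamini-Hochberg adjustment over all 14808 genes tested. A gene was called below 0.05. For the family result all RN7SL rows were summed first. For shares and ratios an exact permutation test over libraries, two-sided, was used. Wilson 95% intervals cover counting error only. Levels between genes used the deposited TPM. Alternatives used DESeq2 1.42.0 and limma 3.58.1 (limma on log2(TPM + 1) or log2(TPM + 0.1)). Gene positions and overlaps are from GENCODE release 29 (GRCh38), matched by symbol. Sequences of 7SL RNA are not reported here.

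The genes and lists were chosen with earlier results of these data known. All 10 members are named, and of each list the called genes or, with none called, the 2 with the smallest p. SEC61A1, SEC61B, SEC61G, SEC11C, BCYRN1, RPPH1, RNY4, RPL41, RN7SKP80 and the genes that overlap a member were named in addition, after their values were seen. RN7SL rows above 1000 counts in a library are named, and the 5 genes most like the 7SL family and the SRP proteins in their shares. Tested on simulated counts for MUT over WT, the fit over 14470 genes called 9.09% of 1.5-fold, 52.2% of 2-fold and 97% of 4-fold changes, and 7 of 14270 unchanged genes. Apart from these changes the simulated libraries had the same mean composition, with no outlying library. The changes were placed only in genes above a minimum average level, so these rates need not hold for the real libraries.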

Additional observations from a re-analysis of the deposited data

How the results depend on the processing

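Under TMM scaling and DESeq2 size factors the calls were the same in number, 1 of the 10 members and 2 pathway genes. By library size alone, where the median of all genes moved to 0.527 on the log2 scale, 0 members and 0 pathway genes were called, the protein median was 0.76, and the log2 fold changes turned positive for SRP14 (0.35), SRP54 (0.32), SEC11A (0.0268), CAMLG (0.11), NACA (0.26) and BTF3 (0.15). DESeq2's Wald test called 2 members and 6 pathway genes among 764 of 12763 genes (5.99%), and edgeR without the filter on low counts called 10 pathway genes among 1195 of 29369. With limma on log2(TPM + 1) and a minimum of 1 TPM, only 5 members could be tested: 0 members and 1 pathway gene (RPPH1) were called, the protein median was 0.62, and SRP14 (0.25), SEC11A (0.0799), NACA (0.46) and BTF3 (0.201) turned positive. With log2(TPM + 0.1) the median was 0.69 and these values 0.27, 0.0827, 0.47 and 0.203, with 0 members and 1 pathway gene called. With log2(TPM + 1) over all genes 0 members and 1 pathway gene were called, and SRP14 (0.25), SRP54 (0.11), SEC11A (0.0799), CAMLG (0.11), NACA (0.46) and BTF3 (0.201) were positive. In the 4 libraries with the least ribosomal RNA 0 members were called, SRP9 (-0.0347) and SRP19 (-0.202) turned negative, and so did the log2 ratio difference of RN7SL1 to RN7SL2 (-0.0396). Leaving out 1 library at a time gave 0 to 2 members and 0 to 4 pathway genes called, in fits that called 27 to 442 genes in all (442 without MUT replicate 2), with log2 values from -0.0383 to 0.208 for SRP9, from -0.37 to 0.26 for SRP19 and from -0.0541 to 0.0825 for the RN7SL1 to RN7SL2 ratio. The labels do not say that a replicate number marks a shared culture or day, so the numbers were not taken to pair libraries. Same-numbered MUT and WT libraries correlated at -0.345, 0.0207 and 0.322 in their deviations, which cannot settle it. With a replicate block 296 genes were called, against 283 without it, while SRP19 stood at -0.0326. Leaving RN7SK pseudogene rows out of the other counts as well, an alternative chosen after seeing the data, gave an exact permutation p of 0.1 for the shares of the SRP proteins and of the receptor. The cause of these changes was not tested. SRP54 had 90 to 208 counts per MUT library and 89 to 198 per WT library.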

Other observations

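BCYRN1 encodes a brain-enriched RNA with an Alu-like domain that SRP9 and SRP14 can bind. It stood at 3.15, 0.42 and 4.04 CPM in MUT and at 1.199, 2.65 and 0.646 CPM in WT, with overlap. Under TMM scaling MUT replicate 2 was again the lowest MUT library, as it was for RN7SL1, RN7SL2, RN7SK, RMRP, RPPH1 and RNY3. For RNY4 it was not. These ranks depend on the scale. As shares of all counts RN7SL1, RN7SL2 and RPPH1 were also lowest in MUT replicate 2. RMRP was highest there, at 1.158%, against 1.136% in MUT replicates 1 and 3. WT replicate 2 was the highest WT library for BCYRN1 but the lowest for RN7SL1 and RN7SL2. RPPH1, the RNA of RNase P, took 9.3%, 7.62% and 8.84% of all counts in MUT, against 5.04%, 5.304% and 5.75% in WT. All MUT shares were above all WT shares. This held for 23.5% of the 14791 genes tested outside the abundant RNAs, a set that leaves RPPH1 itself out. By limma on log2(TPM + 1) over all genes above 0, RPPH1 was called higher in MUT (0.77, adjusted p = 0.00478). Under TMM scaling RPPH1 overlapped (log2 fold change 0.19, SE 0.52, edgeR adjusted p = 0.891).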
